A study of Mus musculus with 27 samples.

Results

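Enzymes and enzyme subunits that make or use isocitrate and the acids around it were followed through the differentiation of mouse embryonic stem cells: Idh1, Idh2, Idh3a, Idh3b, Idh3g, Cs, Ogdh, Sdha and Mdh2. They were taken by name as 9 of the 25209 genes listed in each of the 8 tables, and all 9 had a value in every table. They were chosen by name with knockout against wild-type results of these samples known, so no value below is a test of the choice. The cells were V6.5 embryonic stem cells, either wild type (WT) or one of 2 Zfp512b knockout clones, KO4 and KO8, in which a triple transcription terminator with a selection cassette had been inserted after exon 3 of Zfp512b. Each knockout is a single clone, and the WT cells had not passed through the editing and selection. RNA was sequenced in naive cells kept in 2iLIF (day 0, 3 libraries each of WT, KO4 and KO8), in primed cells kept in serum with LIF (day 2, 2 libraries each), in neural progenitor cells (NPCs) grown from embryoid bodies with retinoic acid (day 10, 2 each) and in cardiomyocytes (CMs) grown from hanging-drop embryoid bodies with vitamin C (day 7.5, 2 each), which makes 27 libraries in all. The labels do not say whether the libraries of a group came from separate cultures.

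The tricarboxylic acid (TCA) cycle oxidises acetyl groups in the mitochondrial matrix and hands the electrons to the respiratory chain. Isocitrate is turned into 2-oxoglutarate by 3 enzymes. The NAD-dependent enzyme of the cycle is built from a catalytic alpha subunit (Idh3a) with beta and gamma subunits (Idh3b, Idh3g), whereas Idh2 in mitochondria and Idh1 in the cytosol and peroxisomes are homodimers that use NADP and can run in both directions. In embryonic stem cells 2-oxoglutarate is also a cosubstrate of the enzymes that demethylate histones and DNA.

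Each deposited table gives, for every gene, the authors' base mean: the mean of the normalised read counts of the WT libraries and of the libraries of 1 clone at 1 stage. A base mean therefore holds WT and knockout cells in equal parts and carries no spread between libraries. The tables of KO4 and KO8 at a stage share their WT libraries, so they are 2 partly overlapping measurements and not 2 replicates. The sum of the base means was 36.1 and 36.0 M reads in naive cells and between 16.8 and 18.6 M at the other stages, and the estimated totals of single libraries ran from 34.2 to 39.7 M reads in naive cells and from 15.1 to 19.3 M elsewhere.

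The genes lie on 9 chromosomes. In the mm9 build with GENCODE vM1, Idh2 is the protein-coding gene at chr7:87239732-87260278 on the minus strand, with 1 transcript of 11 exons and 1745 bases, and Idh1 lies at chr1:65205190-65233053 on the minus strand, with 4 coding transcripts that cover 2530 bases of exon. Idh3a lies at chr9:54434288-54452468 (plus strand, 2528 bases of exon), Idh3b at chr2:130105045-130110283 (minus strand, 1616 bases) and Idh3g at chrX:71024302-71032236 (minus strand, 1331 bases). The longest identical run between any transcripts of Idh1 and Idh2 was 19 bases and that between Idh3b and Idh3g 17 bases, so these relatives share little sequence at the length of a read. Cs shares a run of 92 bases with its intronless relative Csl, but Csl had a base mean of at most 1.63 in any table.

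Promoters of Idh1, Idh2 and Idh3b are shown because the first pair moved together over the stages while Idh3b stayed nearly level. Each is the RefSeq window of 250 bases before to 50 bases after the start of transcription on GRCm38.p6, written 5′ to 3′ on the strand of the gene, at chr1:65186430-65186729, chr7:80115301-80115600 and chr2:130284402-130284701, all on the minus strand. Capitals mark matches on either strand to the GC box GGGCGG and the CCAAT box CCAAT.
Idh1: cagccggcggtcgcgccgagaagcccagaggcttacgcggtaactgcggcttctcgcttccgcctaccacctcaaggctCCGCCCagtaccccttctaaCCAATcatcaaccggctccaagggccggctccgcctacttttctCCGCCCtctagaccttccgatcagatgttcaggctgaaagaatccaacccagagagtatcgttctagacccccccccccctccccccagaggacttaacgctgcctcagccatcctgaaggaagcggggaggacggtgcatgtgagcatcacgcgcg
Idh2: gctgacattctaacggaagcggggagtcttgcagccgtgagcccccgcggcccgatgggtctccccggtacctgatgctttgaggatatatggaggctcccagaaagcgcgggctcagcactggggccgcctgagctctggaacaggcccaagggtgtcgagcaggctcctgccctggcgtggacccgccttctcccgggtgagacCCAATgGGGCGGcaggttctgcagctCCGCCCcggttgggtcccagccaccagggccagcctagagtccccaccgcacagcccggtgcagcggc
Idh3b: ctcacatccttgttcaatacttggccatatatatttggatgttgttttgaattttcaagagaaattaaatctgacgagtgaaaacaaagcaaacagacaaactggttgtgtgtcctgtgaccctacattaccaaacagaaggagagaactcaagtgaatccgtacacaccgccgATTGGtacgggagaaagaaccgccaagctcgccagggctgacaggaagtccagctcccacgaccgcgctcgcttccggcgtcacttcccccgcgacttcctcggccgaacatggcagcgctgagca
The windows of Idh1 and Idh2 each hold 2 GC boxes and 1 CCAAT box, and that of Idh3b holds 1 CCAAT box and no GC box. GC boxes were not particular to this pair: Mdh2 had 2, Cs 3 and Ogdh 1, whereas Idh3g and Sdha had none. A GC box occurred in 35.7% and a CCAAT box in 37.4% of all 32851 promoter windows of this length. Their GC content was 62.0% for Idh1, 68.3% for Idh2 and 50.3% for Idh3b, against a median of 52.7% over all windows. Of the 9 genes, 8 had a window, and Idh3a had none. Idh1 had 2 windows and Ogdh 6, and for these genes only the window at the outermost start was searched. None of the 8 windows searched held the TATA box TATAAA, the E-box CACGTG or AAGGTCA, a site of estrogen-related receptors. These occurred in 13.6%, 7.15% and 4.72% of all windows. Nor did any hold GCATGCG, the core of the site of NRF1, a known activator of nuclear genes for mitochondrial proteins; 3.58% of all windows held it. Such matches describe the letters of the window only.

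Before the enzymes, the targeted gene was checked. Zfp512b lies at chr2:181316808-181327508 on the minus strand in mm9, where GENCODE vM1 calls it Znf512b, and encodes a zinc finger protein. Because a base mean is a sum of whole reads weighted by library, the counts behind it could be solved where a single set of whole numbers, of all that gave both base means of a stage, carried at least 0.99 of the weight. In primed cells the WT libraries had 929 and 977 normalised reads of Zfp512b, the KO4 libraries 191 and 219, and the KO8 libraries 184 and 154. In CMs the WT libraries had 1118 and 1060, the KO4 libraries 184 and 209, and the KO8 libraries 155 and 174. All knockout libraries lay below all WT libraries at both stages: KO4 kept 21.5% and KO8 17.7% of the WT mean in primed cells, and 18.0% and 15.1% in CMs. In NPCs the counts of this gene were not solved, and in naive cells, with 9 libraries, solving was not attempted, so its reduction was not checked there.

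The labelled cell types were checked against their markers on the scale on which the tables of the 4 stages were brought together. The naive factors Zfp42, Esrrb, Klf4, Tfcp2l1, Nanog and Prdm14 summed to 75642 (KO4 tables) and 77703 (KO8 tables) at the naive and 36231 and 34717 at the primed stage. They summed to 1426 and 2100 for NPCs, and to 2836 and 1391 for CMs. Of these factors, Zfp42 alone was higher in primed cells (9457 and 8956) than in naive cells (8301 and 8201). Dnmt3b, a DNA methyltransferase of the primed epiblast, went from 3263 and 3266 in naive cells to 25470 and 27239 in primed cells. The other primed markers rose unevenly: Pou3f1 from 34.9 and 37.2 to 2007 and 2198, and Otx2 from 739 and 823 to 1178 and 1270. Fgf5 reached only 46.6 and 52.1 in primed cells and stood at 955 and 729 in CMs. In NPCs the proneural factor Neurog2, at 0 in both earlier stages, stood at 128 and 118, but Sox1 and Pax6, factors of early neural progenitors, were at 147 to 328, and the collagen gene Col3a1 was at 10903 and 9754. The CM tables held the heart genes Myh6 (5775 and 8249), Actc1 (11047 and 16472) and Tnnt2 (3500 and 5244), none of which passed 122.5 at any other stage. Ttn, another heart gene, was at 2109 and 3234 there, but also at 916 and 936 in naive and 351 and 481 in primed cells. Collagen, endoderm and embryonic globin genes were present in the CM tables as well. The CM cultures were thus mixtures by their markers, and the NPC cultures held collagen transcripts too. In such bulk samples, fewer cells of a type and less RNA per cell cannot be told apart.

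Of the 4 stages, levels of both NADP-dependent enzymes were lowest in primed cells and higher in both differentiated cultures, and those of Idh3a were lowest in NPCs. Levels are given as scaled base means, in which the tables of a clone at the 4 stages were divided by the median ratio over 11992 (KO4) or 11943 (KO8) genes. Each is given first from the KO4 and then from the KO8 tables.

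**Figure D1:**
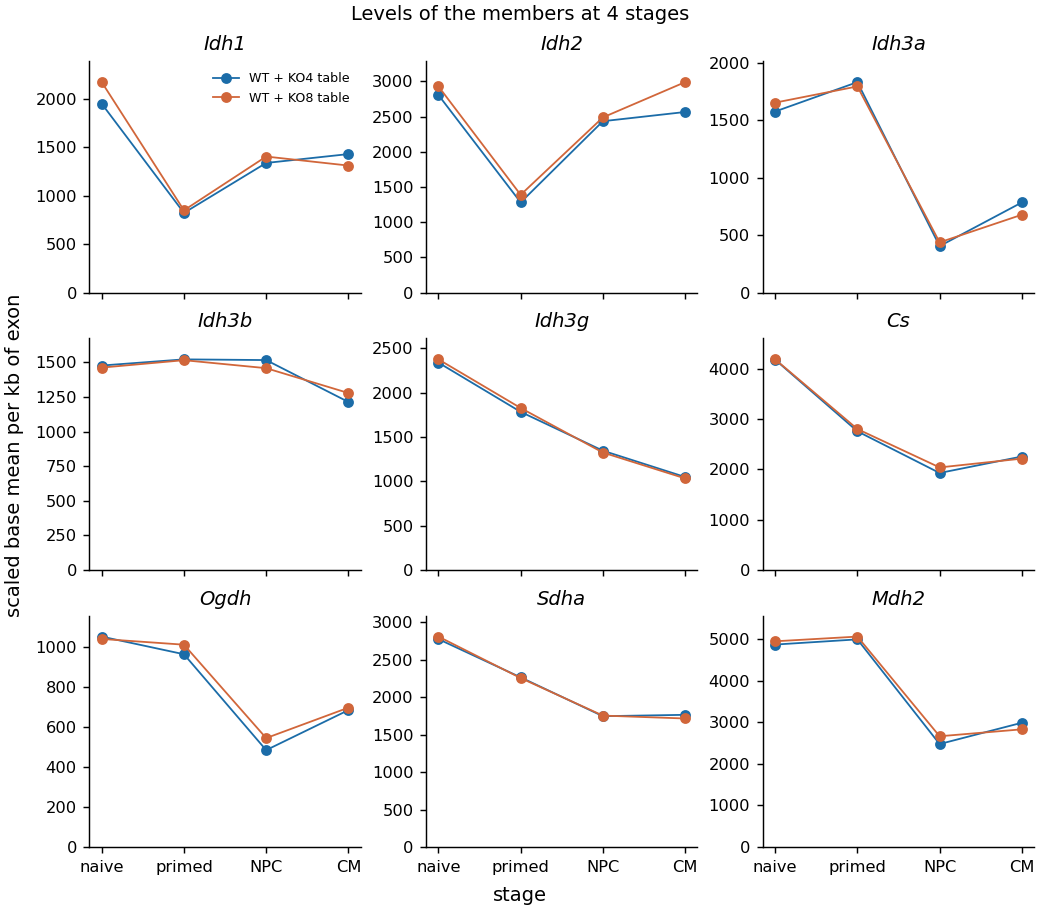
Scaled base mean per kb of exon (vertical axes, each from 0) of the 9 genes at the 4 stages (horizontal axis). Each point is the authors' mean over the WT libraries and the libraries of KO4 (blue) or KO8 (orange), with no error available. Idh1 and Idh2 were lowest in primed cells, Idh3a, Ogdh and Mdh2 were high in naive and primed cells and lower in NPCs and CMs, and Idh3b varied least.

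Scaled base means of Idh2 were 4899 and 5113 in naive cells, and 2237 and 2425 in primed cells. They stood at 4250 and 4344 in NPCs, and at 4478 and 5218 in CMs. Its level in primed cells was below that of every other stage in both sets of tables. The naive and CM levels overlapped, and the NPC level lay just below both. Idh1 had 4937 and 5501 at the naive and 2084 and 2151 at the primed stage, followed by 3389 and 3557 for NPCs and 3621 and 3321 for CMs. Unlike Idh2, it stayed below its naive level in both differentiated cultures, and its NPC and CM levels overlapped.

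Of the NAD-dependent enzyme, the catalytic subunit gene Idh3a had 3985 and 4180 at the naive and 4631 and 4537 at the primed stage. Only 1023 and 1106 were left for NPCs, and 1984 and 1714 for CMs. The regulatory subunit genes did not follow it. Idh3b had 2388 and 2363 at the naive stage, 2459 and 2450 at the primed stage, and 2451 and 2357 for NPCs, with 1962 and 2066 for CMs. Idh3g was lower at each later stage in this order, from 3111 and 3160 in naive cells through 2372 and 2430 at the primed stage and 1789 and 1761 for NPCs to 1394 and 1373 for CMs. Idh3a, Idh3b and Idh3g thus had 3 different profiles although their products form one complex.

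Citrate synthase (Cs), which opens the cycle by joining acetyl-CoA to oxaloacetate, had the highest scaled base mean of the 9 at every stage: 11827 and 11845 (naive), 7798 and 7924 (primed), 5452 and 5764 (NPCs), and 6378 and 6260 (CMs). Ogdh, the first subunit of the complex that consumes 2-oxoglutarate, had 5244 and 5185, 4804 and 5042, 2416 and 2716, and 3412 and 3473 in this order of stages. Mdh2, the mitochondrial malate dehydrogenase that closes the cycle, had 7081 and 7196, 7262 and 7360, 3603 and 3875, and 4348 and 4118 at the same stages. Sdha, the flavoprotein of succinate dehydrogenase and so a part of the respiratory chain as well, had 8051 and 8150, 6571 and 6545, 5068 and 5091, and 5122 and 4979. Cs, Ogdh, Mdh2 and Sdha were all lower in NPCs and CMs than in naive cells.

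Levels of different genes were compared per kb of exon, with the mean of the 2 tables of a stage. Mdh2 was first at every stage, at 4903 per kb in naive cells and 2568 per kb in NPCs. Idh2 was the third in naive cells (2869 per kb), the seventh in primed cells (1336) and the second in NPCs (2462) and CMs (2778). Idh1 was last in primed cells (837), and Idh3a was last in NPCs (421). Several neighbours in these orders cannot be separated, since their difference was smaller than that between the tables of the clones: Idh3a and Idh3g in primed cells (1813 and 1804) and Mdh2 and Idh2 in CMs (2907 and 2778) are examples. With the length of the longest transcript in place of all exons, Idh3b and Idh1 in NPCs and Idh3a and Ogdh in CMs changed places, and no other rank changed.

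The balance between the isocitrate dehydrogenases shifted with these profiles. Idh2 relative to Idh3a, both per kb, stood at 1.78 and 1.77 at the naive and 0.700 and 0.774 at the primed stage, and at 6.02 and 5.69 for NPCs and 3.27 and 4.41 for CMs. Primed cells were the only one of the 4 stages at which Idh3a exceeded Idh2. Idh2 relative to Idh1 per kb varied less, from 1.35 in naive cells (KO8 table) to 2.28 in CMs (KO8 table). Idh3a relative to Idh3b was near 1 in naive cells (1.07 and 1.13) and primed cells (1.20 and 1.18) but 0.27 and 0.30 in NPCs. A ratio between 2 genes within a table does not depend on how the stages are scaled.

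Stages were compared as log2 ratios of scaled base means, and a gene was counted as higher or lower when it passed 1.5-fold in the tables of both clones. No test is attached, because the base means carry no spread; the counting error was at most 0.03 on the log2 scale for each of these genes. All libraries of a stage differ from those of another in medium and day at once, and the naive libraries also in depth, so stage and any batch of preparation cannot be told apart.

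**Figure D2:**
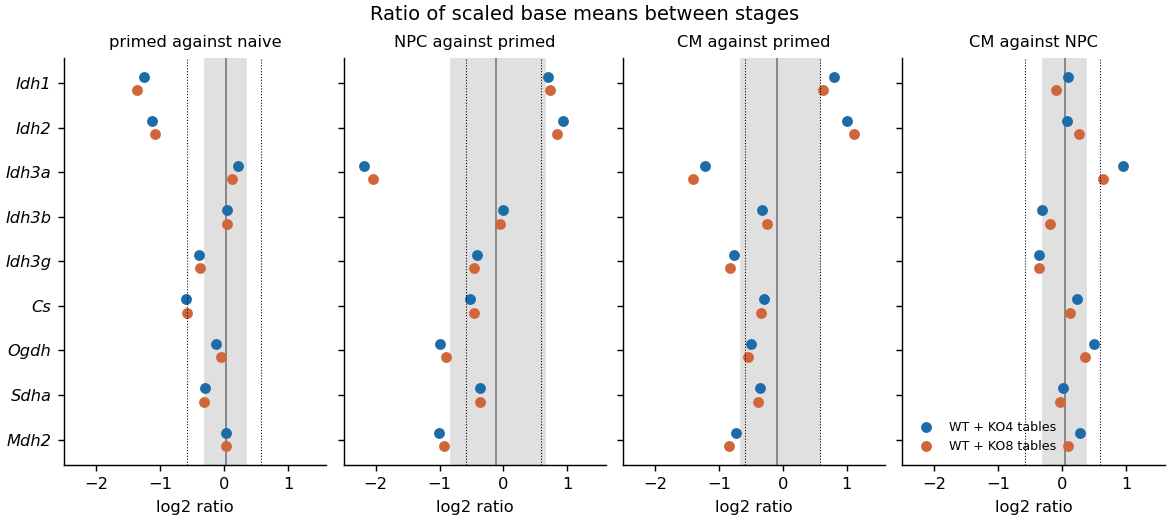
Log2 ratio of scaled base means (horizontal axes) of the 9 genes between stages, from the KO4 tables (blue) and the KO8 tables (orange). The grey band spans the 25th to 75th percentile of all genes compared, averaged over the 2 sets of tables, the grey line marks their median and the dotted lines 1.5-fold. Idh1 and Idh2 lie left of the band in primed against naive cells and at or right of its edge in NPCs and CMs against primed cells, and Idh3a lies far left in NPCs.

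Between naive and primed cells, 2 of the 9 genes were lower and none was higher. These were Idh1, with a log2 ratio of -1.24 and -1.35 (2.37-fold and 2.56-fold lower), and Idh2, with -1.13 and -1.08 (2.19-fold and 2.11-fold lower). Over the 9553 genes whose base mean reached 100 in the 4 tables, 11.6% were lower and 11.9% higher by this rule. Cs came next at -0.60 and -0.58, on either side of the limit, and the other 6 lay between -0.39 and 0.22. The median of the 9 was -0.29 and -0.32, against 0.03 for all genes in both sets of tables.

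From primed cells to NPCs, 2 genes were higher and 3 lower, against 25.7% and 31.3% of 9177 genes. Idh2 was higher by a log2 ratio of 0.93 and 0.84 (1.90-fold and 1.79-fold) and Idh1 by 0.70 and 0.73. Idh3a was lower with a log2 ratio of -2.18 and -2.04 (4.52-fold and 4.10-fold), Mdh2 with -1.01 and -0.93 and Ogdh with -0.99 and -0.89. Idh3b, at 0.00 and -0.06, hardly differed, while Idh3g, Cs and Sdha lay between -0.52 and -0.36. The 5 of 9 members past the limit were thus close to the share of genes at large; the size of the Idh3a ratio set it apart from the other 8.

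From primed cells to CMs, 2 were higher and 3 lower, against 22.1% and 24.1% of 9205 genes. Idh2 was higher by 1.00 and 1.11 (2.00-fold and 2.15-fold) and Idh1 by 0.80 and 0.63. Idh3a was lower with -1.22 and -1.40, Idh3g with -0.77 and -0.82 and Mdh2 with -0.74 and -0.84. The remaining 4, Idh3b, Cs, Ogdh and Sdha, lay between -0.54 and -0.25. With the tables scaled by their summed base means instead, Mdh2 was just under the limit at -0.58 in the KO4 tables, and with no minimum in the scaling Idh1 was at 0.55 in the KO8 tables.

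Between the differentiated cultures, Idh3a alone of the 9 was higher in CMs than in NPCs, at 0.95 and 0.63 (1.94-fold and 1.55-fold), and none was lower, against 10.5% higher and 9.16% lower of 10318 genes. Scaled by these sums, the Idh3a ratio was 0.83 and 0.48, so it no longer passed in the KO8 tables. Idh2 differed by 0.08 and 0.26 and Idh1 by 0.10 and -0.10, a difference in direction between the tables.

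The other enzymes and subunits of the cycle were counted from a list of 18, of which 17 reached a base mean of 100 in the tables compared. The list was drawn up with earlier results known. Of all genes, 11.9% were higher and 11.6% lower from naive to primed cells, and 25.7% and 31.3% from primed cells to NPCs. The shares were 22.1% higher and 24.1% lower from primed cells to CMs, and 10.5% and 9.16% in CMs against NPCs. From naive to primed cells 2 were higher, Suclg2 (a succinyl-CoA ligase subunit; 1.14 and 0.96) and Pcx (pyruvate carboxylase; 0.93 and 0.94), and Ogdhl, a relative of Ogdh, was lower (-1.05 and -1.06). From primed cells to NPCs 8 of 17 were lower and none higher, and the largest by the smaller of their 2 ratios were Ogdhl (-0.96 and -0.97) and Acly (ATP citrate lyase; -0.87 and -0.86). From primed cells to CMs 2 were lower, Ogdhl (-1.20 and -1.63) and Pcx (-0.80 and -0.69), and none was higher, and between CMs and NPCs none passed. The median of the list in NPCs against primed cells was -0.49, against -0.11 for all genes.

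Idh1 and Idh2 were therefore higher in NPCs and CMs than in primed cells by this rule, where none of these 17 genes was. For the lists that follow, 31.3% of all genes were lower and 25.7% higher in NPCs than in primed cells, with a median of -0.11. In CMs 24.1% were lower and 22.1% higher than in primed cells, with a median of -0.09. From naive to primed cells 11.6% of all genes were lower and 11.9% higher, and in CMs against NPCs 9.16% and 10.5%. Among 18 subunits of the respiratory chain, which takes up the electrons that the cycle releases, 11 were lower in NPCs than in primed cells and none higher, with a median of -0.75, and 9 were lower in CMs, with a median of -0.62. From naive to primed cells 2 of these 18 were lower, and 1 was higher in CMs than in NPCs. Of the pyruvate dehydrogenase complex and its regulators, which feed the cycle, 13 were listed and 10 measured in both comparisons with primed cells: 5 were lower and 1 higher in NPCs, and 4 were lower in CMs. From naive to primed cells 2 of 11 were higher and 1 lower, and 1 of 11 was lower in CMs than in NPCs. Pdk1, a kinase that inactivates the complex, was the largest of these, at 2.52 and 2.88 in primed against naive cells. Pdk1 was singled out after its values were seen. Of the other such kinases listed, Pdk3 was at 0.10 and 0.01 and Pdk4 at -0.24 and -0.53, and Pdk2 was not measured in this comparison.

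Genes that handle 2-oxoglutarate, NADPH and citrate outside the cycle numbered 20, of which 17 were measured. In NPCs against primed cells 9 were lower and 3 higher, and in CMs 7 were lower and 3 higher. From naive to primed cells 3 were lower and 1 higher, and between CMs and NPCs 2 were lower and 1 higher in CMs. Me1, cytosolic malic enzyme and another source of NADPH, was, like Idh1 and Idh2, lowest in primed cells: its log2 ratio was -1.59 and -1.84 in primed against naive cells, 0.70 and 0.80 in NPCs against primed cells and 1.09 and 1.83 in CMs against primed cells. Nnt, the mitochondrial NADPH-forming transhydrogenase, lay between -0.14 and 0.00 in all 4 comparisons. Me1 and Nnt were chosen after their values were seen. Of the regulators of mitochondrial biogenesis, 10 were listed, with Twnk entered also under its older symbol Peo1; 4 of 8 measured were lower in NPCs and 4 in CMs than in primed cells, with 1 higher in CMs, among them Tfam (-0.83 and -0.78 in NPCs), which binds and packages mitochondrial DNA. None of 9 passed between naive and primed cells, and 1 of 8 was higher in CMs than in NPCs.

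Across the 8 tables, the 9 genes fell into different shapes. The Pearson correlation of log2 scaled base means was 0.89 between Idh1 and Idh2, 0.98 between Idh3a and Ogdh, 0.98 between Idh3a and Mdh2, and 0.97 between Cs and Sdha, whereas Idh2 had -0.46 with Idh3a and -0.48 with Idh3b. These 8 points are 4 stages with pairs of tables that share WT libraries, so the values are descriptions over few independent points. Of 9044 genes with a scaled level of at least 100 in all tables, those most like Idh2 were Slc31a1 (r = 0.995), Ssr1 (0.995), Dctn2 (0.994), Rbms2 (0.993) and Atp8b2 (0.992), and Idh1 ranked 292.

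The clones were compared with each other at each stage. Since both tables of a stage hold the same WT libraries, the difference between their base means, once brought to one scale by those WT libraries, is 0.5 times the difference between the KO4 and KO8 means. The log2 ratio of the base means has the sign of the log2 ratio of KO4 to KO8 and is never larger than it. A gene was counted when its base means differed by more than 1.1-fold.

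**Figure D3:**
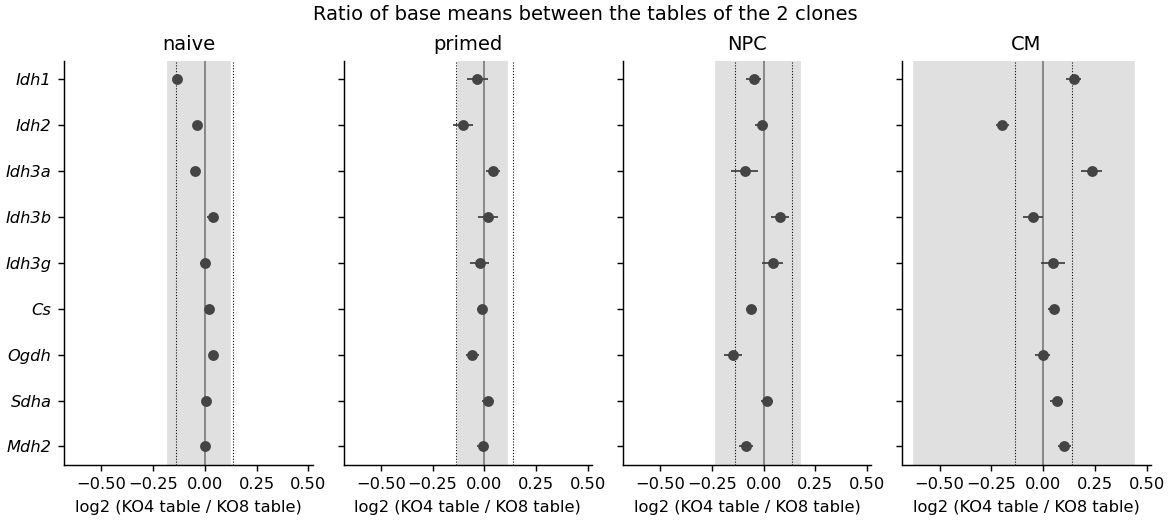
Log2 ratio of the base mean in the KO4 table to that in the KO8 table (horizontal axes) for the 9 genes at each stage, after scaling by the shared WT libraries. Bars are 95% intervals for counting error only, the grey band spans the 5th to 95th percentile of all genes whose base mean reached 100, and dotted lines mark 1.1-fold. The band is widest in CMs, where Idh2 lies left of the dotted lines and Idh1 and Idh3a right.

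In naive cells none of the 9 passed, where 11.6% of 10787 genes did. Idh1 came closest: its base means were 8305 in the KO4 table and 9113 in the rescaled KO8 table, a log2 ratio of -0.13, so the KO4 mean was 1618 normalised reads below the KO8 mean, with a counting error of at most 107.8. The Idh1 ratio was larger in size than that of 87.8% of all genes. Idh2 had 8240 and 8469, a log2 ratio of -0.04. The other 7 lay between -0.05 and 0.04.

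In primed cells again none passed, where 7.08% of 9776 genes did. Idh2 had the largest ratio of the 9, with 1691 and 1818 and a log2 ratio of -0.10, larger in size than that of 86.6% of all genes. The other 8 lay between -0.06 and 0.04.

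In NPCs 1 of 9 passed, against 18.1% of 11124 genes. This was Ogdh, with 2167 and 2400 and a log2 ratio of -0.15. Idh2 had 3812 and 3840, a log2 ratio of -0.01, and the difference between the KO4 and KO8 means, -55.7 normalised reads, was smaller than its counting error of at most 87.5. In the same libraries the 6 naive factors summed to 1279 in the KO4 table and 1857 in the rescaled KO8 table, and all 6 were lower with KO4; their part in these values was not tested.

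Idh3a in NPCs was the only one of 27 combinations of gene and stage outside naive cells for which the counts of the single libraries could be solved. For this gene 5 sets of whole numbers gave both base means, and the values below are those of the set with the most weight. The weight assumes a dispersion of 0.01, so the SDs, overlap and separation below rest on this choice of set. In this set the WT libraries had 913 and 947 normalised reads, the KO4 libraries 863 and 948, and the KO8 libraries 1016 and 1036. The KO8 libraries lay above the other 4, and the KO4 libraries overlapped with WT. The KO8 mean was 110% and the KO4 mean 97.3% of WT, with means of 930 ± 23.8 (SD, n = 2) in WT, 906 ± 60.2 in KO4 and 1026 ± 14.1 in KO8. Separation of this kind was common: among 1672 NPC genes of lower base mean with solved counts, the libraries did not overlap between KO8 and WT in 53.5% and between KO4 and WT in 54.3%. With 2 libraries against 2, the smallest p an exact permutation test can give is 0.333. Among the same genes the 2 KO8 libraries differed from each other by a median of 0.23 on the log2 scale, once the median difference was subtracted. The WT libraries differed by 0.18 and the KO4 libraries by 0.16. Counting alone gives 0.10 or less if reads are independent, and more if mates were counted separately.

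**Figure D4:**
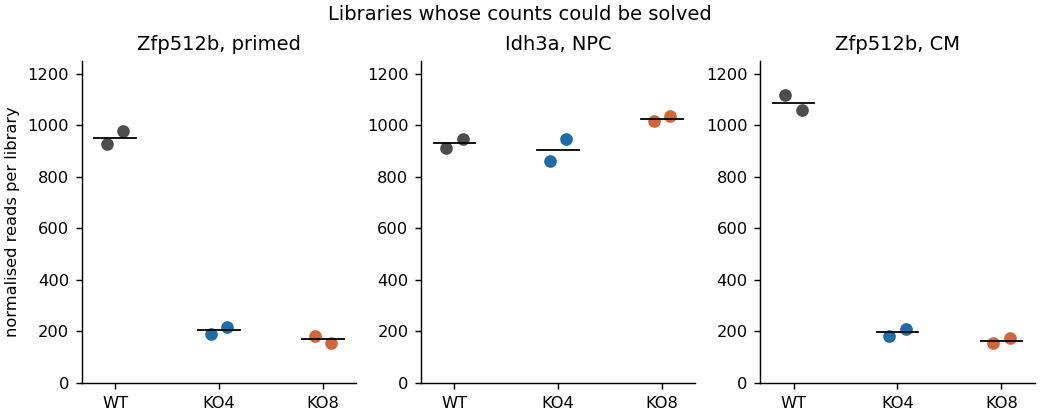
Normalised reads per library (vertical axis, from 0) for the genes and stages whose counts could be solved. Points are single libraries of WT (grey), KO4 (blue) and KO8 (orange), 2 per group, and bars are means. Zfp512b lay between 154 and 219 in the knockout libraries and between 929 and 1118 in WT, and Idh3a in NPCs lay between 863 and 1036 in all libraries. The Idh3a values are those of the most heavily weighted of 5 sets of counts.

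In CMs 3 of 9 passed, against 55.6% of 10820 genes, so passing this limit was common at this stage. The 3 went in different directions. Idh2 had 3932 in the KO4 table and 4505 in the rescaled KO8 table, a log2 ratio of -0.20 with a counting error of at most 0.016, which puts the KO4 mean 1145 normalised reads below the KO8 mean. Idh3a had 1742 and 1480, a log2 ratio of 0.24, and the KO4 mean was higher by 525 reads. Idh1 had 3180 and 2867, a log2 ratio of 0.15, and the KO4 mean was higher by 625 reads. The ratios of Idh2 and Idh1 had opposite signs, but no error between libraries is available for them. In size, the ratio of Idh2 was larger than that of 58.5%, Idh3a of 66.3% and Idh1 of 47.6% of all genes. Mdh2 followed at 0.10, Sdha and Cs at 0.07 and 0.05, Idh3g at 0.05, Ogdh at 0.00 and Idh3b at -0.05.

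Cell type markers moved with the clone in the same CM libraries. On the scale of the KO4 table, the 6 cardiomyocyte markers summed to 22224 with KO4 and 33127 with KO8, and all 6 were lower with KO4. The 3 fibroblast and smooth muscle markers summed to 26784 and 53832, the 4 endothelial and blood markers to 6826 and 19484 and the 4 endoderm markers to 3076 and 6571, and all of them were lower with KO4. The 6 neural markers summed to 9645 and 3694, of which 5 were higher with KO4, among them Sox1 (1757 and 82.5) and Pax6 (1425 and 76.0), while Neurog2 was at 0.493 and 0.963. The 2 general pluripotency markers Pou5f1 and Sox2 summed to 6695 and 2337. The part of these markers in the Idh1, Idh2 and Idh3a values was not tested. In naive and primed cells the sums of the naive factors differed by less than 1.1-fold between the tables.

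The lists of related genes were counted between the clones in the same way. In either direction, 11.6% of all genes passed in naive cells, 7.08% in primed cells, 18.1% in NPCs and 55.6% in CMs. Of the other cycle enzymes, 3 of 17 were higher with KO4 in CMs and none lower, led by Ogdhl (0.43) and Suclg2 (0.17), 1 was lower in naive cells, Suclg2 (-0.28), none passed in primed cells, and 1 was lower in NPCs, Sdhaf1 (-0.17), an assembly factor of succinate dehydrogenase. Of the respiratory chain 1 of 18 passed in NPCs, 1 in CMs and none in naive or primed cells. Of 17 genes around 2-oxoglutarate, 6 were higher and 2 lower with KO4 in CMs, whereas 1 of 18 was lower in naive cells, none passed in primed cells, and 1 was higher and 2 lower in NPCs. Of the pyruvate dehydrogenase list 2 of 11 were higher and 4 lower in CMs, 1 of 12 was higher and 3 lower in naive cells, 1 of 11 was lower in primed cells, and 2 of 11 were higher and 1 lower in NPCs. Of 8 biogenesis regulators, 3 were higher and 1 lower in CMs, and none of the 8 or 9 measured passed at the other stages.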

How the data were processed

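Reads were trimmed with Trim Galore 0.6.7 and aligned to mm9 with HISAT2 2.2, counted with featureCounts and compared with DESeq2 1.46.0, per the labels and the methods of the study. The deposited tables hold, per gene, the authors' base mean (a signal of mean normalised counts over the WT libraries and those of 1 clone) and the authors' own fold changes, standard errors and p-values, which were not used. Genes and lists were chosen with earlier results of these data known.

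The planned limma tests were not run, since counts per library of these genes could be solved for 1 of 27 combinations of gene and stage outside naive cells, where solving was not attempted. From the base means, tables were scaled between stages by the median ratio over genes whose base mean reached 10 in all 4, and between clones by the step that 1 read of each WT library adds. The limits of 1.1-fold and 1.5-fold and the minimum base mean of 100 were set after the files were seen. Counts were accepted where 1 solution took at least 0.99 of the weight at a dispersion of 0.01. The solver was run on simulated data drawn at that same dispersion, with the same mean for KO8 and WT. That run therefore does not test counts with a larger spread or a changed KO8 mean. Genes seen in a single library held 2 reads more often (2453 genes) than 1 (1825), so mates may have been counted separately, and counting errors, which take reads as independent, are then understated. Named list genes were the 2 largest passing differences of the other cycle enzymes in each direction, the 5 genes most like Idh2 over the 8 tables in place of 27 libraries, Zfp512b and the markers; other list genes were named after their values were seen. Scripts ran in Python 3.11.15 (numpy 2.4.6; pandas 2.3.3; numba 0.67.0).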

Additional observations from a re-analysis of the deposited data

How the results depend on the processing

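No paired analysis was possible because the base means pool the libraries and carry no replicate number. For the same reason the planned limma fits, voom weights, quantile normalisation, pseudocounts, fits of all groups of a stage together and leave-one-out fits were not run. The Idh2 log2 ratios between stages kept their direction except for CMs against NPCs. With the tables scaled by their summed base means they were -1.22 and -1.16 in primed against naive cells (KO4 and KO8 tables), 1.21 and 1.12 in NPCs against primed cells, 1.16 and 1.24 in CMs against primed cells, and -0.050 and 0.11 in CMs against NPCs. With no minimum in the scaling they were -1.17 (KO4 tables) in primed against naive cells, 0.81 and 0.72 in NPCs against primed cells, 0.93 and 1.02 in CMs against primed cells, and 0.11 and 0.30 in CMs against NPCs. With a minimum of 100 they were 1.05 and 0.97, 1.09 and 1.20, and 0.041 and 0.23 in the same last 3 comparisons, and with only the 2 stages scaled -1.18 and -1.12 in primed against naive cells. Scaling by these sums shifted every gene by 0.28 in NPCs against primed cells in both sets of tables. Of 13 calls over 36 combinations of gene and comparison, 3 were lost and 3 gained over 5 settings: Idh1 and Mdh2 in CMs against primed cells and Idh3a in CMs against NPCs were lost under 1 setting each, and Cs in primed against naive cells was gained under 3. Between the clones the 4 calls remained under all 5 other scalings, which moved no ratio by over 0.011, and Idh1 in naive cells also passed (-0.14) when scaled by the sums. Counts of naive libraries were not attempted, and outside naive cells those of Idh2 could not be solved, so no error between replicates can be given for the Idh2 values.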
